A study of Homo sapiens with 6 samples.

Results

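The 10 genes described here encode the core of the TGF-beta pathway: the 3 ligands TGFB1, TGFB2 and TGFB3, the 3 receptors TGFBR1, TGFBR2 and TGFBR3, and the 4 SMADs SMAD2, SMAD3, SMAD4 and SMAD7. They were chosen by name for their roles, and all 10 were found among the 62696 genes counted and were among the 17307 that passed the filter on low counts. They were measured by RNA-Seq in DMS53, an established small cell lung cancer (SCLC) line with neuroendocrine (NE) features. The control group is 3 libraries of DMS53 transduced with the empty lentiviral plasmid pLenti-C-mGFP-P2A-Puro, and the OC2-OE group is 3 libraries of DMS53 transduced with a lentiviral open reading frame for mGFP-tagged OC2, the transcription factor encoded by ONECUT2. Both groups were selected with puromycin, so expression was enforced constitutively in a selected population of 1 cell line, without a time course, and the OC2 measured is a fusion to GFP. The study asked whether OC2 has a role in SCLC plasticity, and the comparison here asks how the TGF-beta components differed between the groups.

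TGF-beta ligands are secreted as latent dimers, held by their own propeptides and by latent TGF-beta binding proteins in the matrix, and are released by integrins, thrombospondin or proteases. The active ligand brings together the type II receptor TGFBR2 and the type I receptor TGFBR1, while TGFBR3 (betaglycan) presents the ligand and matters most for TGFB2, which binds TGFBR2 poorly on its own. TGFBR1 phosphorylates SMAD2 and SMAD3, which enter the nucleus with SMAD4, and SMAD7 is induced in turn and shuts the receptor down. In epithelial and lung cancers the pathway is known for growth arrest in early disease and for epithelial-mesenchymal transition, invasion and immune suppression later.

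The libraries held 16533284 to 19099337 counts. ONECUT2 was examined as a check of the labels, with 394 to 465 counts per control library against 68853 to 74031 per OC2-OE library. Levels are given as CPM (each library's counts brought to the same total, after TMM normalization) with the SD of 3 libraries, and differences as log2 fold changes of OC2-OE over control with their standard error (SE) and adjusted p from edgeR's quasi-likelihood fit over all tested genes. A gene is called when its adjusted p was under 0.001, the threshold of the study. The study describes the libraries as independent experiments, and the labels number them 1 to 3 in each group. The spread between libraries of a group was small, with a common biological coefficient of variation of 2.196% in edgeR. Whether the libraries of a group came from 1 or several transduced populations is not stated. The adjusted p-values can thus be taken to cover only the spread between these libraries, not that between transductions.

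Enforced OC2 expression was accompanied by a change in which ligand gene predominated. TGFB2, the most abundant member per length of exon in the control cells, fell 7.97-fold, TGFB3 fell 3.43-fold, and TGFB1 rose 1.88-fold. The type II receptor TGFBR2 and the inhibitory SMAD7 fell, and SMAD3 and, by a small margin, SMAD4 rose. TGFBR1, TGFBR3 and SMAD2 were not called. In all, 7 of the 10 members (70%) were called, 3 higher and 4 lower. Over all tested genes 56.5% were called, 27.8% higher and 28.7% lower, so a call was common in this comparison and the members' share was not far above it. The libraries of the groups did not overlap for 8 members, against 73.2% of all tested genes. The median log2 fold change of the members was -0.088 against 0.0071 over all tested genes, and the median absolute value was 0.50 against 0.38. The 10 genes thus did not share a direction.

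**Figure D1:**
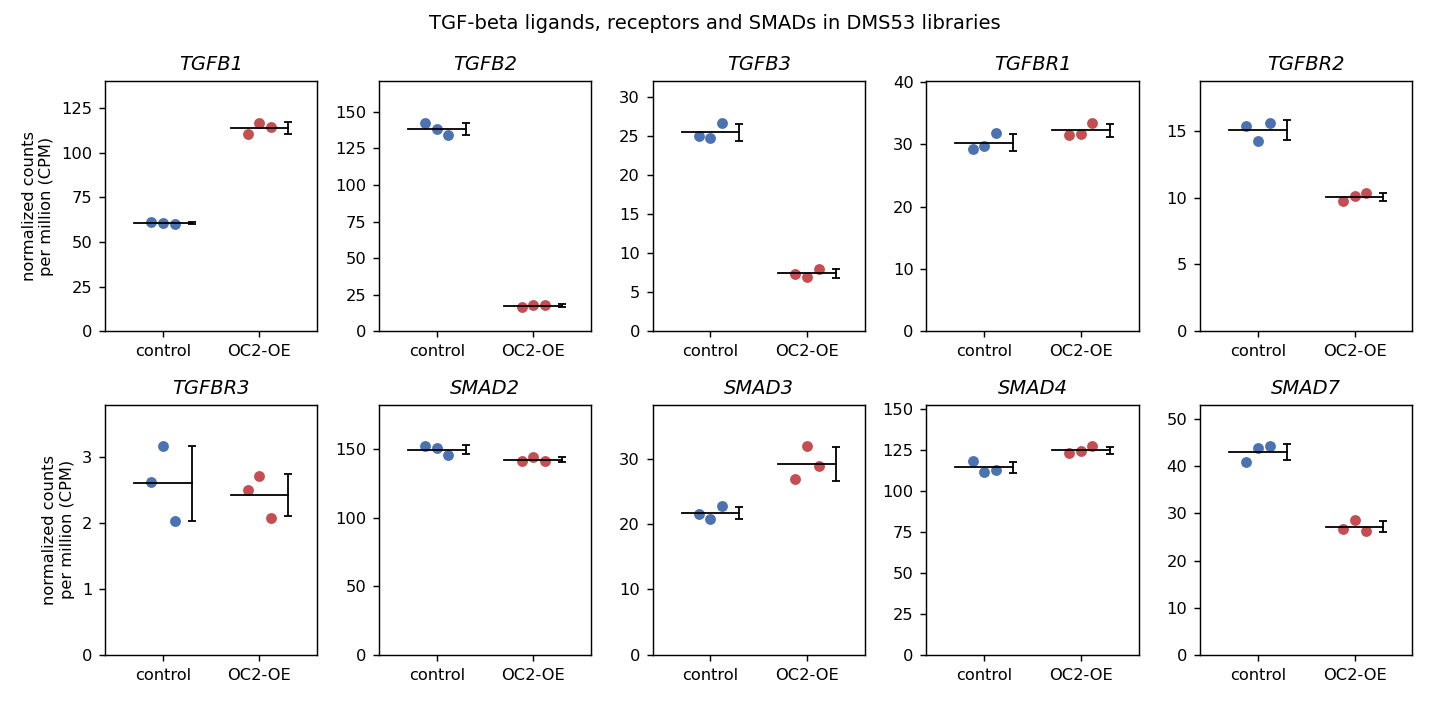
Normalized expression (CPM, linear axes from 0) of each of the 10 members in the 3 control and 3 OC2-OE libraries. Points are libraries, horizontal lines the means and bars the SD; TGFB1 is higher and TGFB2 and TGFB3 are lower in every OC2-OE library, and TGFBR1 and TGFBR3 overlap.

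The promoters of 4 members that changed are shown because the ligand genes moved in opposite directions and because words known as binding sequences were found in the windows of TGFBR2 and SMAD7. The sequences are RefSeq promoters on GRCh38.p14, from 250 bases before to 30 bases after an annotated start, in the direction of the gene. They are TGFB1 at chr19:41353893-41354172 on the minus strand, TGFB2 at chr1:218345086-218345365 on the plus strand, TGFBR2 at chr3:30606351-30606630 on the plus strand, and an alternative start of SMAD7 at chr18:48942778-48943057 on the minus strand. Capitals mark the TATA word TATAAA in TGFB2, the AP-1 word TGAGTCA in TGFBR2 and the ONECUT word ATCAAT (the reverse complement of ATTGAT) in SMAD7, and the TGFB1 window held no word searched.
TGFB1: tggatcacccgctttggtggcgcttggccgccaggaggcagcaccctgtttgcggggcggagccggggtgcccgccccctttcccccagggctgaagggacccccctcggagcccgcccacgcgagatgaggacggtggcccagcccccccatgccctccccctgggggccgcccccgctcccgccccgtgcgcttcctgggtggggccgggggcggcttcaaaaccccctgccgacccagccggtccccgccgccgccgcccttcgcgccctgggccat
TGFB2: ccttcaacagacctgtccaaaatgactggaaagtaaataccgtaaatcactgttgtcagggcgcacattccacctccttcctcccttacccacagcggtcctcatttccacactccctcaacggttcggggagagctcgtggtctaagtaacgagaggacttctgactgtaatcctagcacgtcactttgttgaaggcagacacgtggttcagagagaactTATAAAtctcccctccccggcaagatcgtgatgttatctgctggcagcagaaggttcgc
TGFBR2: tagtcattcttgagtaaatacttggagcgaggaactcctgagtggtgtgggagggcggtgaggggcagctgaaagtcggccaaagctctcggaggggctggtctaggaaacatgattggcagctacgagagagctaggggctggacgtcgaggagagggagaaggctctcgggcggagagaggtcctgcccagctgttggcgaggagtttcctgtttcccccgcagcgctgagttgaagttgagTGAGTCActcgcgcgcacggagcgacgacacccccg
SMAD7: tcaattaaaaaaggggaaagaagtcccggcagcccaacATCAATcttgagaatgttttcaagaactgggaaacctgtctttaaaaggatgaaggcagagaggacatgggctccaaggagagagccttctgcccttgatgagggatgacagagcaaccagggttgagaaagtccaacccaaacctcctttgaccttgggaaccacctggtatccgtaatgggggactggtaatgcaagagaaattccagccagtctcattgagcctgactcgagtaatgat

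The 10 members had 26 RefSeq promoters in all, and these were searched on both strands from 250 bases before to 50 bases after the start. The ONECUT words ATTGAT and ATCAAT, which are one word read on the 2 strands, were in 1 of the 26 member promoters, the SMAD7 one shown, where it begins 212 bases before the start, and in 6.26% of all 34794 promoters. The second ONECUT word, ATCGAT, was in 0 of the 26 and in 0.762% of all. Of the SMAD words, the palindrome GTCTAGAC was in 0 of the 26 and in 0.193% of all, and the CAGA box AGCCAGACA was in 0 and in 0.282%. TGAGTCA was in 2 of the 26, in TGFBR2, where it begins 6 bases before the start, and in an alternative promoter of SMAD3, where it begins 56 bases before, against 4.96% of all. TATAAA, a word added after the sequences had been read, was in 3 of the 26 and in 11.6% of all. In TGFB2 it begins 29 bases and in a TGFB3 promoter 30 bases before the start, and the third was a SMAD7 promoter. A match of letters is a description of the window and shows no binding, and which of the annotated starts these cells use was not tested.

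Among the ligands, TGFB2 (ENSG00000092969.12, GRCh38 chr1:218345336-218444619) showed the largest change of the 10 members. It had 2664, 2311 and 2183 counts in control replicates 1, 2 and 3 and 314, 312 and 324 in the OC2-OE replicates. Every control library was thus far above every OC2-OE library, and the spread within each group was small. The mean was 138 ± 4.18 CPM in control and 17.4 ± 0.878 CPM in OC2-OE (SD, n = 3 each), a log2 fold change of -2.99 (SE 0.048, 95% interval -3.09 to -2.90, adjusted p = 2.40e-88). Of all tested genes, 1.73% had as large an absolute log2 fold change. TGFB2 shares 22.7% of its exon bases with TGFB2-OT1 on the same strand, and read pairs that fall only there are left out of both genes, so its level is understated in both groups. TGFB2-OT1 itself had 0 counts in every library.

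TGFB2-AS1, an antisense RNA gene that overlaps the start of TGFB2 on the other strand, was looked at after its values were seen. It had 33, 26 and 22 counts in control and 4, 4 and 3 in OC2-OE replicates. It fell with TGFB2, by 2.92 on the log2 scale (SE 0.41, adjusted p = 2.37e-10), although its counts are low. The library kit marks the strand and the counting used it, but reads assigned to the wrong strand were not measured, so their part in the counts of TGFB2-AS1 was not tested.

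TGFB1 (ENSG00000105329.11, chr19:41301587-41353922), the ligand best known from fibroblasts, platelets and regulatory T cells, went the other way. Control replicates 1 to 3 had 1138, 1013 and 978 counts, and OC2-OE replicates 1 to 3 had 2117, 2024 and 2088. The groups did not overlap, and the control libraries lay within 1 CPM of each other. TGFB1 rose from 60.5 ± 0.384 to 114 ± 3.22 CPM (SD, n = 3 each), a log2 fold change of 0.91 (SE 0.039, 95% interval 0.83 to 0.99, adjusted p = 1.68e-44).

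TGFB3 (ENSG00000119699.8, chr14:75958097-75983011), a ligand needed for palate fusion and lung development, was the least abundant of the 3. It had 466, 414 and 434 counts in the control and 140, 120 and 145 in the OC2-OE libraries. All control libraries were above all OC2-OE libraries. The mean fell from 25.5 ± 1.07 to 7.40 ± 0.523 CPM (SD, n = 3 each), a log2 fold change of -1.78 (SE 0.087, 95% interval -1.95 to -1.61, adjusted p = 3.06e-39).

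To compare the ligands with each other, counts were divided by the length of the merged exons of each gene. On this scale TGFB2 made up 49.4 ± 0.812% of the summed ligand level in the control cells and 7.33 ± 0.167% in the OC2-OE cells (SD, n = 3 each). Its length includes the 22.7% of exon bases shared with TGFB2-OT1, where pairs are left out, and TGFB1 and TGFB3 share 0%. The share of TGFB2 is thus understated in both groups. The share of TGFB1 was 40.1 ± 0.325% in control and 89.1 ± 0.293% in OC2-OE. TGFB3 took 10.5 ± 0.557% in control and 3.61 ± 0.278% in OC2-OE. The order of the ligands thus went from TGFB2, TGFB1 and TGFB3 to TGFB1, TGFB2 and TGFB3, and the shares of the groups did not overlap for any of the 3. The summed ligand level went from 46.3 ± 0.656 to 39.2 ± 1.11 CPM per kilobase of exon. With 1 principal transcript length it went from 59.8 to 47.6, and without any length scaling, which weights the long TGFB2 more, from 224.3 to 138.8 CPM. Each of these differences gave p = 0.1 in a two-sided exact permutation test, the smallest that 3 against 3 libraries can give, so the p alone cannot pass 0.05.

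**Figure D2:**
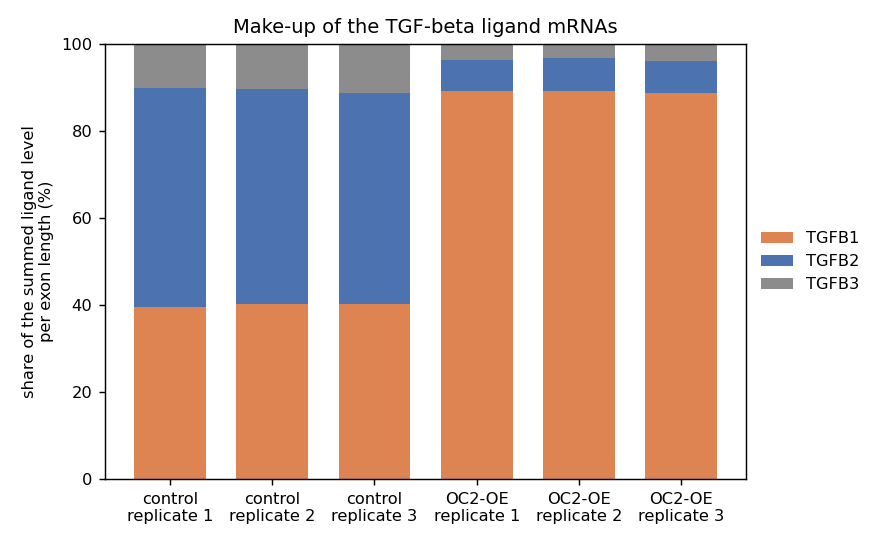
Share (%) of TGFB1, TGFB2 and TGFB3 in the summed ligand level per exon length, 1 bar per library, stacked to 100%. TGFB2 is 48.5% to 50.1% in the control bars and 7.14% to 7.43% in the OC2-OE bars, where TGFB1 is 88.7% to 89.3%. The TGFB2 shares are understated, since pairs in exon bases shared with TGFB2-OT1 are left out.

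The receptors changed less than the ligands, and 1 of the 3 was called. TGFBR2 (ENSG00000163513.19, chr3:30606601-30694142), the type II receptor that binds the ligand first, had 287, 238 and 254 counts in the control and 187, 175 and 188 in the OC2-OE libraries. The groups did not overlap. It fell from 15.1 ± 0.743 to 10.1 ± 0.282 CPM (SD, n = 3 each), a log2 fold change of -0.58 (SE 0.091, 95% interval -0.76 to -0.40, adjusted p = 9.89e-09).

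TGFBR1 (ENSG00000106799.14, chr9:99104038-99154192), the kinase that phosphorylates SMAD2 and SMAD3, had 548, 497 and 518 counts in the control and 605, 550 and 610 in the OC2-OE libraries. Control replicate 3 reached into the range of the OC2-OE libraries, and the gene was not called. The means were 30.3 ± 1.36 and 32.3 ± 1.06 CPM (SD, n = 3 each), with a log2 fold change of 0.09 and a 95% interval of -0.03 to 0.21 (adjusted p = 0.156). The interval leaves room for a change of up to 1.16-fold upwards.

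TGFBR3 (ENSG00000069702.11, chr1:91680343-91906335), the co-receptor, was near the limit of precise measurement, with 49, 53 and 33 counts in the control and 48, 47 and 38 in the OC2-OE libraries. The groups overlapped. Its means were 2.61 ± 0.569 and 2.43 ± 0.319 CPM (SD, n = 3 each), and the log2 fold change of -0.10 had a 95% interval of -0.51 to 0.30 (adjusted p = 0.665), so that at this depth a fall to 0.702 or a rise to 1.24 times the control level could not be told from no change. The co-receptor that matters most for TGFB2 was thus the lowest of the 10 members per length in both groups.

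The log2 ratio of TGFBR1 to TGFBR2 per exon length was 0.79 ± 0.067 in control and 1.46 ± 0.025 in OC2-OE (SD, n = 3 each). The groups did not overlap, and the exact permutation p was again 0.1, the smallest possible.

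Of the SMADs, SMAD2 and SMAD3 are the receptor-activated ones. SMAD2 (ENSG00000175387.16, chr18:47808957-47931146) had 2839, 2524 and 2368 counts in the control and 2703, 2499 and 2574 in the OC2-OE libraries. On the CPM scale the groups just failed to overlap, with 145.6 to 152.0 in control and 141.1 to 144.2 in OC2-OE. Its log2 fold change was -0.07 (SE 0.031, 95% interval -0.13 to -0.01, adjusted p = 0.0305), which is above the threshold, so SMAD2 was not called.

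SMAD3 (ENSG00000166949.17, chr15:67063763-67195173), which unlike the main form of SMAD2 binds DNA itself, had 403, 348 and 369 counts in the control and 514, 552 and 525 in the OC2-OE libraries. Every OC2-OE library was above every control library. It rose from 21.7 ± 0.953 to 29.2 ± 2.54 CPM (SD, n = 3 each), a log2 fold change of 0.43 (SE 0.067, adjusted p = 1.18e-08). The log2 ratio of SMAD2 to SMAD3 per exon length went from 0.92 ± 0.092 to 0.42 ± 0.11 (SD, n = 3 each), without overlap (exact permutation p = 0.1, the smallest possible). With the length of 1 principal transcript per gene in place of all exons, the ratio was 0.32 in control and -0.18 in OC2-OE. Without length scaling it was 2.79 in control and 2.29 in OC2-OE. The lengths used were 36426 bases of exon and 34526 of transcript for SMAD2, and 9981 and 6247 for SMAD3. Which of the pair is the higher in OC2-OE cells thus depends on the length used, while the difference between the groups does not.

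SMAD4 (ENSG00000141646.15, chr18:51028394-51085045), the shared partner of the TGF-beta and BMP SMADs and a tumor suppressor, had 2211, 1869 and 1834 counts in the control and 2355, 2149 and 2315 in the OC2-OE libraries. The groups did not overlap, at 111.7 to 118.3 CPM and 122.9 to 127.1 CPM. The rise, from 114 ± 3.57 to 125 ± 2.16 CPM (SD, n = 3 each), was 1.09-fold (log2 fold change 0.12, SE 0.034, adjusted p = 6.64e-04). The call is narrow, since it was lost with DESeq2 (adjusted p = 0.00533), with voom (adjusted p = 0.00114) and without control replicate 2 (adjusted p = 0.00870), control replicate 3 (0.00506), OC2-OE replicate 2 (0.00168) or OC2-OE replicate 3 (0.00546).

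SMAD7 (ENSG00000101665.10, chr18:48919853-48950965) is both an inhibitor of the receptor and a gene that the pathway induces. It had 766, 735 and 719 counts in the control and 512, 494 and 480 in the OC2-OE libraries, again without overlap. It fell from 43.0 ± 1.78 to 27.2 ± 1.16 CPM (SD, n = 3 each), a log2 fold change of -0.66 (SE 0.057, adjusted p = 3.05e-20), or 1.58-fold. The 3 SMADs called were therefore 2 that rose and 1 that fell, and of the members called only TGFB2 and TGFB3 changed at least 2-fold.

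**Figure D3:**
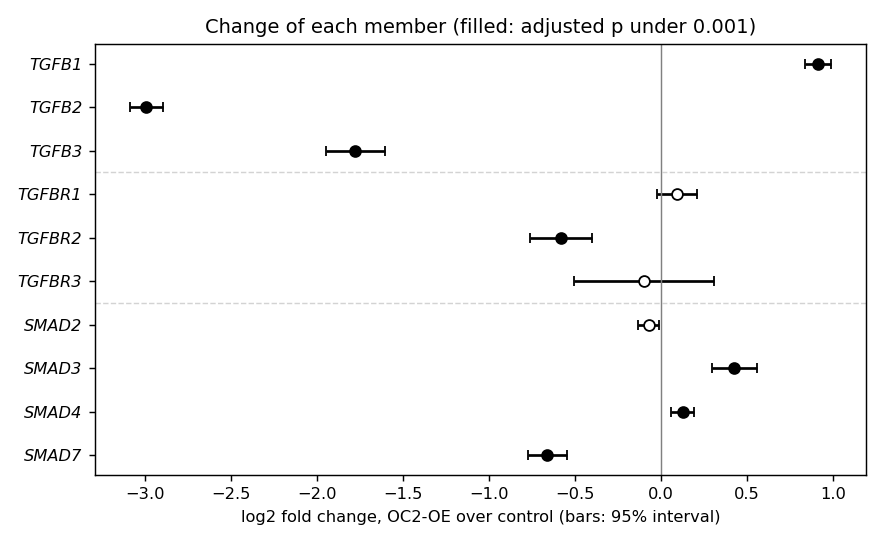
Log2 fold change of OC2-OE over control for the 10 members, with 95% intervals, ligands at the top, then receptors, then SMADs. Filled points passed an adjusted p of 0.001, and TGFB2 at -2.99 and TGFB3 at -1.78 are the 2 points beyond 1 on either side.

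Per length of exon, the order of the members in control cells ran from TGFB2 (22.9 CPM per kilobase) through TGFB1 (18.5), SMAD7 (10.9), SMAD4 (5.81), TGFB3 (4.87), SMAD2 (4.10), TGFBR1 (3.79), TGFBR2 (2.20) and SMAD3 (2.17) to TGFBR3 (0.304). TGFBR2 and SMAD3 overlapped between libraries and cannot be ordered. In OC2-OE cells the order was TGFB1 (34.9), SMAD7 (6.89), SMAD4 (6.34), TGFBR1 (4.04), SMAD2 (3.90), SMAD3 (2.92), TGFB2 (2.87), TGFBR2 (1.47), TGFB3 (1.42) and TGFBR3 (0.284). There, TGFBR1 and SMAD2, SMAD3 and TGFB2, and TGFBR2 and TGFB3 overlapped between libraries. With 1 principal transcript per gene, TGFB2 and TGFB1 still led in control and TGFB1 in OC2-OE, but SMAD4 stood above SMAD7 in both groups, and TGFB2 (3.30 to 3.62) was below SMAD3 (4.29 to 5.10) in OC2-OE without overlap. The TGFB2 levels in these orders are understated for the exon bases shared with TGFB2-OT1.

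Outside the core, 93 further genes of the pathway were examined in 7 lists, and 79 of them passed the filter. Of these 27 were higher and 27 lower, or 68.4% called against 56.5% of all tested genes, with a median log2 fold change of -0.017. By list, 44.4% of the activin and BMP ligands and 50% of their receptors were called, below the share over all tested genes. The share was 62.5% for intracellular regulators, 67.9% for targets and 91.7% for latency and activation. It was 100% for the other SMADs (4 tested) and the extracellular antagonists (5 tested). The list of latency and activation holds genes that store the latent ligands or release them. Of its 12 genes, all tested, 8 rose and 3 fell, with a median of 1.02. ITGB6, the beta subunit of the epithelial integrin that binds the propeptides of TGFB1 and TGFB3 through an RGD motif, had 658, 568 and 506 counts in the control and 6756, 6179 and 6478 in the OC2-OE libraries. It rose from 33.4 ± 2.10 to 355 ± 2.10 CPM (SD, n = 3 each), a log2 fold change of 3.40 (SE 0.035, adjusted p = 1.18e-109), and all OC2-OE libraries were above all control libraries. ITGAV, the alpha subunit that pairs with ITGB6 and ITGB8, is named outside the rule, after its values were seen. It rose from 233 ± 3.39 to 710 ± 14.4 CPM (log2 fold change 1.61, adjusted p = 1.74e-93). ITGB8, the alternative beta subunit, had 1310, 1274 and 1196 counts in the control and 334, 302 and 294 in the OC2-OE libraries. It fell from 70.1 to 76.1 CPM in control to 16.1 to 17.4 CPM in OC2-OE (log2 fold change -2.11, SE 0.056, adjusted p = 8.69e-65).

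THBS1, which encodes thrombospondin 1, a matrix protein that can free latent TGF-beta, rose from 104 ± 2.20 to 340 ± 3.01 CPM (SD, n = 3 each), a log2 fold change of 1.71 (SE 0.029, adjusted p = 1.03e-86). Of the latent TGF-beta binding proteins LTBP1, LTBP3 and LTBP4 rose and LTBP2 fell. FURIN, the protease that cuts the ligand precursors, fell from 441 ± 9.59 to 229 ± 1.68 CPM (log2 fold change -0.95, adjusted p = 2.12e-66). NRROS, a carrier of latent ligand known from microglia and macrophages, was the 1 gene of the list not called.

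Among 14 activin and BMP ligands, 9 were tested, 1 rose and 3 fell, with a median log2 fold change of 0.011. INHBB, a subunit of activin B, which signals through SMAD2 and SMAD3 as TGF-beta does, fell from 56.6 ± 1.78 to 15.3 ± 1.15 CPM (log2 fold change -1.88, SE 0.061, adjusted p = 5.34e-56). GDF15, a stress-induced distant relative that signals through another receptor, rose from 609 ± 20.8 to 1921 ± 9.37 CPM (log2 fold change 1.66, SE 0.020, adjusted p = 7.13e-101). BMP8B fell from 67.7 ± 2.85 to 32.8 ± 2.57 CPM (log2 fold change -1.05, adjusted p = 4.09e-39). BMP7 had 0 counts in every library, where 3 counts would be 0.157 to 0.184 CPM.

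All 10 activin and BMP receptors were tested, with 3 higher, 2 lower and a median of -0.074. The type I receptor ACVRL1 had only 6 counts over the control and 51 over the OC2-OE libraries, a ratio of 8.03 with a 95% counting interval of 3.45 to 22.9 (adjusted p = 9.07e-07). Control replicate 2 held 5 of the 6 control counts, and the fitted log2 fold change of 2.93 was 4.72 without it and 2.31 without control replicate 1, still called both times. The type I receptor BMPR1B fell from 14.1 ± 0.842 to 7.35 ± 0.709 CPM (log2 fold change -0.94, adjusted p = 5.21e-15). Endoglin (ENG), a co-receptor related to TGFBR3, fell from 56.2 ± 1.49 to 30.6 ± 1.16 CPM (log2 fold change -0.88, adjusted p = 1.12e-31).

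The 4 other SMADs, which belong to the BMP branch, were all called, 2 higher and 2 lower, where 56.5% of all tested genes were called. The inhibitory SMAD6 had 45 counts over the control and 9 over the OC2-OE libraries, so that the control level was 5.29 times the OC2-OE level, with a 95% counting interval of 2.56 to 12.3 (adjusted p = 1.94e-05). This call was lost with DESeq2 (adjusted p = 0.00125), without control replicate 2 (adjusted p = 0.00128) and without OC2-OE replicate 1 (adjusted p = 0.00251). The 3 OC2-OE libraries had 0, 6 and 3 counts, and the fitted log2 fold change of -2.36 was -1.75 without OC2-OE replicate 1 and -3.33 without OC2-OE replicate 2. SMAD5, a receptor-activated SMAD of that branch, fell from 290 ± 8.79 to 180 ± 2.08 CPM (log2 fold change -0.68, adjusted p = 9.78e-48), whereas SMAD9, another, rose from 26.9 to 30.8 CPM in control to 40.9 to 42.9 CPM in OC2-OE (log2 fold change 0.53, adjusted p = 6.65e-15).

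Of 10 extracellular antagonists 5 were tested, 2 rose and 3 fell, with a median of -1.42. With DESeq2 and with voom, 1 was higher and 3 were lower. The same counts were found without control replicate 2, control replicate 3, OC2-OE replicate 1 or OC2-OE replicate 3. LEFTY1, an inhibitor of Nodal, had 83 counts over the control and 17 over the OC2-OE libraries (log2 fold change -2.34, SE 0.37, adjusted p = 1.33e-08). Follistatin (FST), which traps activin, rose from 7.22 ± 0.421 to 25.9 ± 0.951 CPM (log2 fold change 1.84, adjusted p = 1.91e-40). The BMP antagonist GREM1 had 78 counts over the control and 28 over the OC2-OE libraries (log2 fold change -1.54, SE 0.33, adjusted p = 2.17e-05).

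Of 17 intracellular regulators and pseudoreceptors 16 were tested, 4 rose and 6 fell, with a median of -0.049. The balance turns with the scaling, since 5 were higher and 4 lower with library size only, and 5 and 5 with upper-quartile normalization. BAMBI, a decoy receptor without a kinase and itself a pathway target, fell from 52.7 ± 1.81 to 19.6 ± 1.38 CPM (log2 fold change -1.42, SE 0.059, adjusted p = 1.23e-45). The kinase HIPK2 fell from 94.3 ± 2.12 to 54.6 ± 2.10 CPM (log2 fold change -0.79, adjusted p = 2.30e-36). The SMAD corepressor TGIF2 rose from 21.8 ± 0.548 to 28.6 ± 2.47 CPM (log2 fold change 0.39, adjusted p = 1.29e-07).

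The last list held 32 genes known as targets of the pathway in various cells, and it includes TGFB1 and SMAD7. Of 28 tested, 8 rose, 11 fell and 9 were not called, with a median log2 fold change of -0.18, so the targets moved in both directions. IGFBP3, a binding protein for insulin-like growth factors, fell from 236 ± 5.91 to 27.4 ± 0.818 CPM (log2 fold change -3.11, SE 0.039, adjusted p = 3.91e-100). ANGPTL4, a secreted inhibitor of lipoprotein lipase, rose from 15.4 to 19.1 CPM in control to 155.7 to 161.5 CPM in OC2-OE (log2 fold change 3.16, SE 0.048, adjusted p = 1.48e-88). TIMP1, an inhibitor of matrix metalloproteinases, rose from 23.1 ± 2.04 to 120 ± 3.25 CPM (log2 fold change 2.38, SE 0.048, adjusted p = 8.00e-78).

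Of other classical targets, named here after their values were seen, PMEPA1 was not detected, CCN2 was low in both groups and SKIL was not. PMEPA1 had 0 counts in every library, as did BMP7, which is also on chromosome 20. Whether these zeros mean no transcription or a locus that is missing or not counted was not tested. CCN2 had 84 and 121 counts and was not called (log2 fold change 0.45, SE 0.24, adjusted p = 0.0858). SKIL, a repressor of SMADs that the pathway induces, had means of 57.0 ± 3.30 and 58.7 ± 2.32 CPM and was not called (adjusted p = 0.440).

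**Figure D4:**
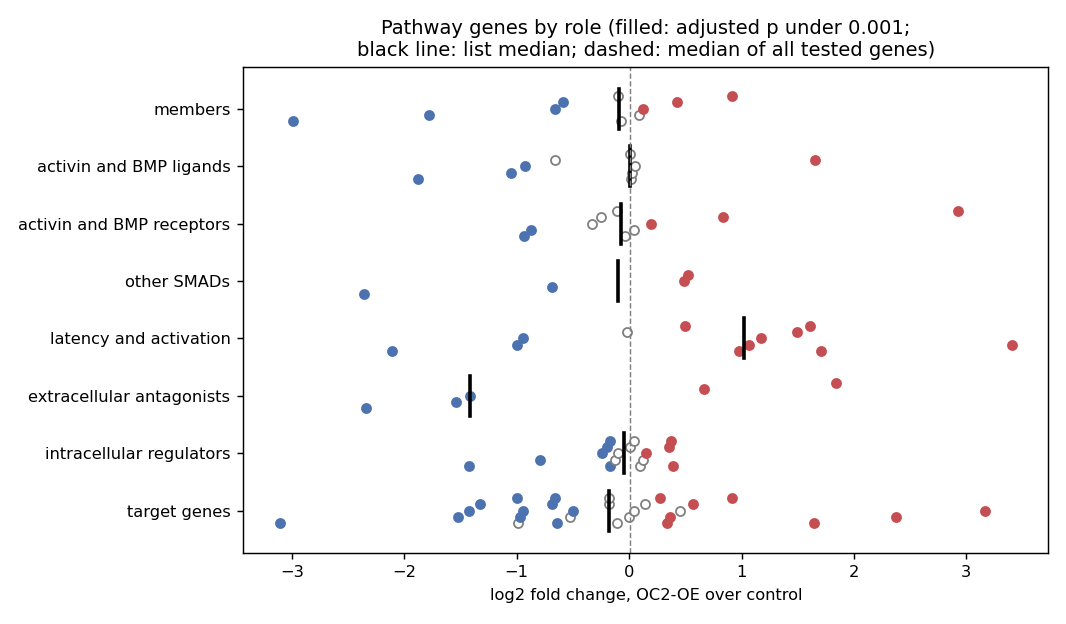
Log2 fold change of OC2-OE over control for each tested gene of the 10 members and the 7 further lists; each point is a gene (red higher, blue lower, open not called), black lines are list medians, and the dashed line is the median of all tested genes. Latency and activation lies mostly to the right with a median of 1.02, and the other lists spread to both sides.

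By the likeness of its pattern over the 6 libraries, TGFB2 was closest to SYT7 (Pearson r of log2(CPM + 1) 0.999979), EFTUD2 (0.999974) and DISP1 (0.999949). These correlations are a description over 6 libraries that share the split into control and OC2-OE, and 1460 of the 11197 genes compared had r above 0.99. SYT7 had 251 CPM in control and 91.1 CPM in OC2-OE, DISP1 had 76.7 CPM and 27.3 CPM, and EFTUD2 had 385 CPM and 289 CPM. The log2 fold change of EFTUD2 was -0.41 against -2.99 for TGFB2, so a high r did not go with a change of like size.

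Markers of cell types were also examined, in a comparison where 56.5% of all tested genes were called. All 10 NE markers examined were expressed in every library and tested; 3 rose and 6 fell, and their summed level was 3723 to 3762 CPM in the control and 4614 to 4663 CPM in the OC2-OE libraries. Their median log2 fold change was -0.29. The higher sum came mainly from SCG2, at 801 CPM in control and 2273 CPM in OC2-OE, with CHGA (1.06) and UCHL1 (0.41) also higher, while GRP (-4.41), DDC (-2.52), NCAM1 (-2.00) and INSM1 (-1.93) fell on the log2 scale. Of 8 fibroblast markers 4 were tested (2 higher, 1 lower), with a sum of 22.7 to 25.4 CPM in control and 28.8 to 32.5 CPM in OC2-OE, mostly from COL1A1, while DCN had 3 counts in each group. Of 8 leukocyte markers 2 were tested, CD14 and LYZ, both higher, with sums of 4.07 to 4.86 and 7.79 to 9.39 CPM. PTPRC had 0 counts over the control and 3 over the OC2-OE libraries. Of 6 endothelial markers 3 were tested, with sums of 13.4 to 15.3 and 4.28 to 4.96 CPM. KDR and CDH5 were lower and PECAM1 was not called. VWF, not tested, went the other way, with 1 count over the control and 17 over the OC2-OE libraries. The part of these marker changes in the results on the TGF-beta genes was not tested. In bulk RNA, a change in every cell and a change in the share of cells that express a gene cannot be told apart.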

How the data were processed

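Stranded poly(A) RNA-Seq libraries were made from 3 control and 3 OC2-OE samples of DMS53. Per the file headers and the submitters' processing notes, the authors aligned reads with STAR 2.7.9a and counted pairs on exons with featureCounts 1.6.0 (GENCODE 42, GRCh38), using strand. The deposited values are raw counts per gene, not normalized or filtered. At 16533284 to 19099337 counts per library, low genes are imprecise, so their counts are given; intervals on counts cover counting error only.

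The counts were filtered (filterByExpr), TMM-normalized and tested in R 4.3.3 with edgeR 4.0.16 (robust quasi-likelihood, no replicate term), and p-values were adjusted by Benjamini-Hochberg over 17307 genes. Steps were tested on simulated data. The SE was taken from the F statistic (size of the log2 fold change over the root of F). DESeq2 1.42.0, voom (limma 3.58.1) and other settings were alternatives. A principal transcript length (GENCODE 29) was added after seeing the data.

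The members and gene lists were chosen with earlier results of these data known. Named genes are the 10 members, ONECUT2, the 3 with the largest absolute change among the called genes of each further list, and the 3 most like TGFB2 among genes with a mean log2 CPM of at least 3. FURIN, NRROS, the LTBP genes, the low or uncalled targets, BMP7 and single markers are outside it, picked once their values had been seen. The values of 1 gene on the target list are not reported here.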

Additional observations from a re-analysis of the deposited data

How the results depend on the processing

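All 10 members kept their direction where called, and TGFB1, TGFB2, TGFB3, TGFBR2, SMAD3 and SMAD7 stayed called under every alternative scaling, test, filter, replicate block and left-out library. SMAD4 lost its call with DESeq2, voom and 4 of the 6 left-out libraries, with log2 fold changes between 0.11 and 0.17 over all settings. TGFBR3, not called, ranged from -0.25 to 0.05. Of 475 values for 32 named genes, 9 changed sides of the threshold, all for SMAD4 and SMAD6. A minimum absolute log2 fold change of 1 left 0 members higher and 2 lower, and 1 activin or BMP receptor, 1 other SMAD, 7 genes of latency and activation, 1 intracellular regulator and 7 targets, of which the fold minimum itself is the cause. Requiring 10 counts in every library left 3 extracellular antagonists, 4 activin and BMP receptors (ACVRL1 was not tested), 3 other SMADs (SMAD6 was not tested) and 10 genes of latency and activation, since fewer were tested. The difference in the TGFB2 share was -42.1 percentage points per exon length, -49.1 without length scaling and -39.2 with 1 principal transcript. With the replicate number as a replicate block, 3 members were higher and 4 lower, as without it, and 9642 genes were called against 9776. Deviations of same-numbered libraries correlated at 0.000975, 0.0160 and 0.0127, and those of differently numbered libraries at -0.0145 to 0.00202. Values this small cannot show whether same-numbered libraries shared a culture or day, and the labels do not say. Over all genes DESeq2 called 8385. The balance over all genes turned with the scaling, from 4810 higher and 4966 lower to 5337 and 4427 with library size only and 5256 and 4521 with upper-quartile normalization, while the members stayed at 3 and 4. Low counts limit the precision of TGFBR3, SMAD6, ACVRL1, LEFTY1, GREM1 and TGFB2-AS1.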
